A study of Saccharomyces cerevisiae with 12 samples.

Results

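Budding yeast makes many RNAs that code for no protein and that lie across its genes on the other strand. Among them are the Xrn1-sensitive unstable transcripts (XUTs), which were catalogued because they accumulate when the cytoplasmic 5′ exonuclease Xrn1 is missing. Of the 1798 XUTs in the table of RNA densities, 1124 overlapped a protein-coding gene on the opposite strand by at least 1 nt, and these antisense XUTs are described here with the genes they face. The measured value of no library was used to choose them. The members lay across 1084 of the 5798 genes in the table, and the other 674 XUTs served as one of the reference classes.

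The study sequenced total RNA of Saccharomyces cerevisiae from 12 cultures, with 2 biological replicates in each of 6 groups. Wild-type cells (WT), wild-type cells given 5-fluorouracil (FU) and cells lacking RRP6 (the rrp6 mutant) were each sampled 40 and 100 min after synchronization. The mutant is a full deletion and received no FU, and the wild-type groups carry no other change in the labels. The sources used here give neither the strain, nor the way of synchronization, nor the dose and duration of FU. RRP6 was checked first, and its density was 0.868 to 1.30 in the 4 WT libraries and 1.17 to 1.96 in the 4 FU libraries. In the 4 mutant libraries it was 0.0507 to 0.0781, far lower, though some reads remained. The source of these remaining reads was not tested.

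Rrp6 is a 3′ to 5′ exonuclease that works with the nuclear RNA exosome. The exosome trims small nucleolar RNAs (snoRNAs) and ribosomal RNA precursors and destroys cryptic unstable transcripts (CUTs) that the Nrd1-Nab3-Sen1 complex terminates early; Nrd1 and Nab3 recognise short motifs in the new RNA. XUTs are mostly capped, adenylated RNAs that reach the cytoplasm and are degraded there, while stable unannotated transcripts (SUTs) persist in wild-type cells, and one locus can carry annotations of more than one class. FU is a pyrimidine analogue used against cancer that blocks thymidylate synthase and is incorporated into RNA, and in yeast it is known to impair exosome-dependent processing. Antisense transcription is known to lower the sense mRNA at some yeast loci, among them PHO84 and GAL1.

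The antisense XUTs had a median length of 709.5 nt (200 to 5923 nt). The longest overlap of an XUT with a gene had a median of 514 nt, and it held a median of 85.9% of the XUT and 44.5% of the gene. Of the 1124 XUTs, 344 lay inside a gene, 231 spanned a whole gene, 328 covered its 5′ end only and 221 its 3′ end only. A single gene was overlapped by 1045 of them, and 76 overlapped 2 genes. On their own strand, 627 of the XUTs overlapped another annotated non-coding transcript, a CUT in 178 cases and a SUT in 355, so that reads of such a locus can enter both annotations. None overlapped a gene on its own strand, and 47 began less than 300 nt past the end of a gene on the same strand. Since 5757 of the 5789 genes matched by locus tag have the same start and end in the RefSeq R64 assembly, coordinates below are those of the table and are read on R64.

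The first 200 nt of the 1119 antisense XUTs on nuclear chromosomes were searched for GTAA and GTAG, the core motifs of Nrd1, and TCTT, the core of the Nab3 motif; a GTAG can share its last G with a following GTAA or GTAG, copies of TCTT can share a T, and each copy was counted. GTAA was found in 56.8%, GTAG in 45.2% and TCTT in 76.7% of the XUTs, with a mean of 3.25 motifs per 200 nt on the XUT's own strand and 2.47 on the opposite strand. The 528 antisense CUTs held 4.51 and 2.32, the 671 XUTs that face no gene 2.72 and 3.07, and the first 200 nt of 5651 genes 1.99 and 3.85. The median share of U was 31.7% in the antisense XUTs, 34.1% in antisense CUTs and 27.5% in genes. The 4 short XUTs printed here lie wholly inside a coding sequence and were among those with the largest rises described below; they are written 5′ to 3′ on the XUT's strand from RefSeq R64, with the motifs in capitals. XUT0696, XUT0691 and XUT1143 face UNG1 (uracil-DNA glycosylase, chr13:229876-230099, plus strand), MFT1 (a subunit of the THO complex of mRNA packaging, chr13:147570-147814, plus strand) and MOT2 (the ubiquitin ligase of the Ccr4-Not complex, chr5:294542-294744, minus strand). XUT1524 faces YLR445W (chr12:1024298-1024594, minus strand).
XUT0696: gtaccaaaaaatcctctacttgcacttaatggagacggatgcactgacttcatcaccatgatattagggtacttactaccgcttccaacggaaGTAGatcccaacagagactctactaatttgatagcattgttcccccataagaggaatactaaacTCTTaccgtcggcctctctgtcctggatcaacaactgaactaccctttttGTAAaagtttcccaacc
XUT0691: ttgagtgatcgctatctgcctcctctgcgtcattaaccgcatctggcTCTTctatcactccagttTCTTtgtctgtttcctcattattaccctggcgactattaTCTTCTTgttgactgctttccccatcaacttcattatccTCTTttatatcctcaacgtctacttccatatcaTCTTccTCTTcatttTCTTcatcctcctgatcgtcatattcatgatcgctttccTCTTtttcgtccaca
XUT1143: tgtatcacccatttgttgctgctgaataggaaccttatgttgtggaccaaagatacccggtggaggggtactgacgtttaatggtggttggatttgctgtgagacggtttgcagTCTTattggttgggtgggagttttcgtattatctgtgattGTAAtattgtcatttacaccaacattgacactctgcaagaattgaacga
XUT1524: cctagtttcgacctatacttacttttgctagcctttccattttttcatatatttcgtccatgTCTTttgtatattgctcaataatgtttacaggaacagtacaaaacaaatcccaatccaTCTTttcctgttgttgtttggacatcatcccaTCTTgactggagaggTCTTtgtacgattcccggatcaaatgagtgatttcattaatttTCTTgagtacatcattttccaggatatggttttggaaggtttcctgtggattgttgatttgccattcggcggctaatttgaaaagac
The 245 nt of XUT0691 held 9 copies of TCTT and 42.4% U. The 297 nt of XUT1524 held 5 copies, and XUT0696 held 1 copy of each motif.

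The deposited value is a density, the number of reads per nucleotide of a feature times 1 factor per library that sets the sum over genes equal in all libraries. Densities can therefore be compared between features of different length. Between 20102931 and 27498217 reads per library underlie them, but antisense XUTs received few. The median XUT had 14 to 21 reads in the WT libraries, 30 to 48 in the FU libraries and 123 to 139 in the mutant libraries, and 358 to 413 of the 1124 had fewer than 10 reads in a WT library. Replicate 2 of WT and of FU at 40 min stood apart, with 20.2% and 20.9% of all reads in snoRNAs against 9.99% to 15.4% in the other 10 libraries. Wrong-strand reads were few, since over the 50 pairs with the most abundant sense genes in WT the antisense density was 0.0314% to 4.80% of the sense density (median 0.427%).

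Antisense XUTs were low in wild-type cells and several times higher without RRP6. Their median density was 0.0207 and 0.0299 in the WT libraries at 40 min, 0.0376 and 0.0587 with FU and 0.132 and 0.133 in the mutant. At 100 min it was 0.0209 and 0.0244 in WT, 0.0349 and 0.0376 with FU and 0.123 and 0.141 in the mutant. The order was the same at both times, WT below FU below the mutant, and no library of one group overlapped the next. Together the 1124 XUTs took 0.212% to 0.265% of the reads in WT, 0.339% to 0.486% with FU and 1.17% to 1.34% in the mutant. In bulk RNA, fewer cells making a transcript and less of it per cell cannot be told apart.

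**Figure D1:**
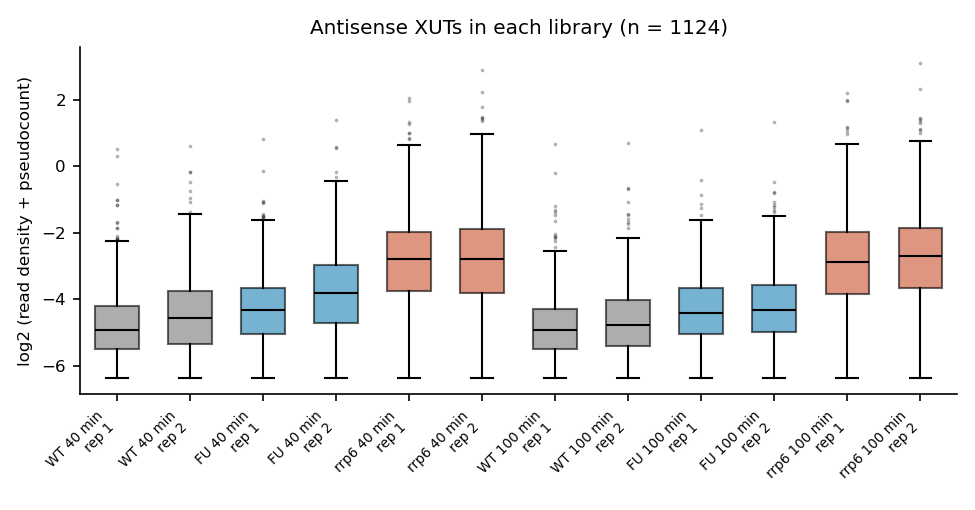
Density of the 1124 antisense XUTs in each of the 12 libraries, as log2(density + 0.0120); the box spans the quartiles, the line is the median and the whiskers reach 1.5 times the interquartile range. The XUT medians lie between 0.0207 and 0.0299 in the WT libraries and between 0.123 and 0.141 in the rrp6 libraries.

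Changes were tested with limma on log2(density + 0.0120), 0.0120 being the 10th percentile of all values above 0, over all 11485 features that reached it in at least 2 libraries. Of the 1124 XUTs, 1103 passed that filter and 21 did not. A change was called at an adjusted p under 0.05 (Benjamini-Hochberg over all features), and log2 fold changes on this scale understate the change of the least abundant features. Under the deposited scaling the median gene also rose in every comparison with WT, by 0.37 (FU, 40 min), 0.30 (FU, 100 min), 0.45 (mutant, 40 min) and 0.45 (mutant, 100 min) on the log2 scale. Scaling by the median of ratios removed this shift (0.016, 0.0019, -0.013 and -0.0062), and counts under it are given beside the main ones. FU and the mutant were compared with the same WT libraries, so their values stand side by side and are not independent.

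Deleting RRP6 raised most antisense XUTs. At 40 min, 930 of the 1103 tested (84.3%) were higher than in WT and 1 was lower, while over all features tested 54.2% were higher and 2.85% lower. At 100 min, 961 (87.1%) were higher and 5 lower, against 57.1% and 2.8% of all features. With the median of ratios the counts were 724 higher and 4 lower at 40 min and 800 higher and 8 lower at 100 min, against 36.2% higher and 7.11% lower of all features at 40 min and 41.3% and 8.3% at 100 min. The median log2 change was 1.75 at 40 min (quartiles 1.11 and 2.51) and 1.89 at 100 min (1.22 and 2.61), which is 1.30 and 1.44 above the median gene. The lists of the 2 times, which use different WT libraries, shared 898 XUTs, 96.6% of the list at 40 min and 93.4% of that at 100 min.

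Other classes of transcript rose by different shares. Among antisense CUTs 98.9% and 97.7% were higher in the mutant at 40 and 100 min, with median log2 changes of 3.02 and 3.13. Among antisense SUTs the shares were 78.6% and 84.3% (medians 1.57 and 1.57), and among XUTs that face no gene 75.8% and 79.4% (medians 1.46 and 1.66). Genes were higher in 32.3% and 34.5% of cases. No test of the difference between classes was made, because features of one locus can share reads.

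**Figure D2:**
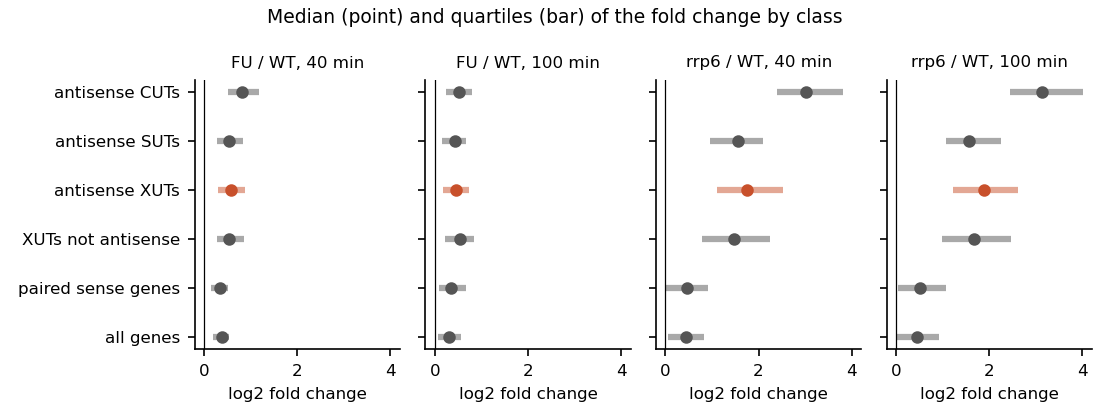
Log2 fold change against WT of the same time for the antisense XUTs, the reference classes and the paired sense genes, for FU and the rrp6 mutant at 40 and 100 min; points are medians and bars span the quartiles. The antisense XUT medians are 0.59 and 0.46 with FU and 1.75 and 1.89 in the mutant.

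Among the antisense XUTs, shares called are given by what else is annotated at the locus; differences between these subsets were not tested, and reads over a shared stretch count for both transcripts. Of the 178 that overlap a CUT on their own strand, 97.7% of those tested were higher at 40 min and 98.3% at 100 min, with medians of 2.61 and 2.74. The 497 that overlap no other non-coding transcript were higher in 82.6% and 85.9% of cases, with medians of 1.77 and 1.90. By position on the gene the shares higher at the 2 times were 89.4% and 90.8% for XUTs over a 3′ end, 87.4% and 89.6% for those that span a gene, 81.9% and 85.4% for those over a 5′ end and 81.1% and 84.7% for those inside a gene. The 453 XUTs with 4 or more of the motifs described above in their first 200 nt were higher in 86.1% and 88.6% of cases (medians 1.87 and 1.98), and the 201 with at most 1 motif in 79.4% and 86.4% (medians 1.48 and 1.65). By mean density over all 12 libraries, the mutant ones included, fewer of the XUTs with a low mean were called. A rise in the mutant itself raises that mean, so these shares do not measure an effect of abundance. Of the 375 with the lowest mean density 71.8% and 76.3% of those tested were higher, and of the 375 with the highest 89.9% and 92.8%. At the edge of the definition, 11 and 10 of the 12 XUTs that overlap a gene by under 20 nt were higher, and 14 and 16 of the 17 XUTs that lie under 20 nt from an opposite gene without reaching it.

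**Figure D3:**
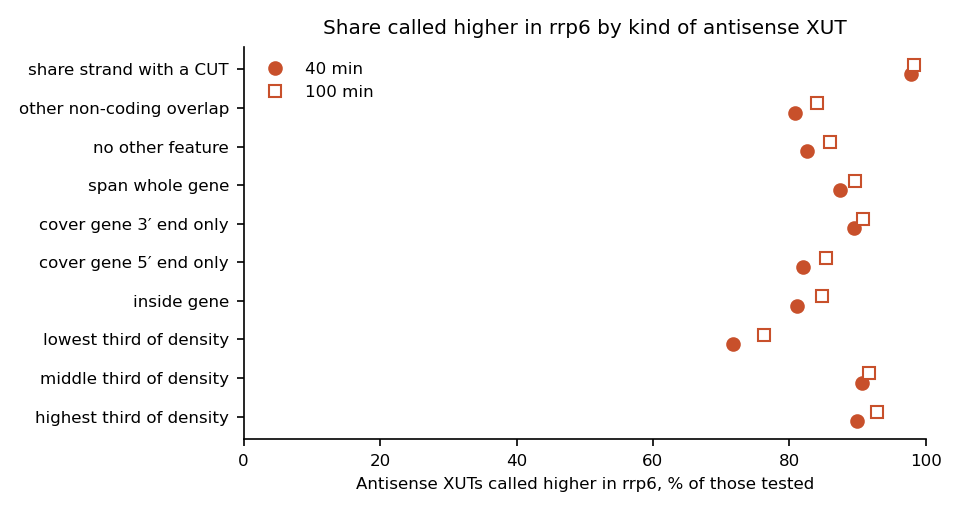
Share of tested antisense XUTs that were higher in the rrp6 mutant than in WT (%), by annotation on the same strand, position on the gene and mean density, at 40 and 100 min. The mean density is over all libraries, the mutant ones included. Shares run from 71.8% in the XUTs with the lowest mean density to 98.3% in those that overlap a CUT.

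The XUTs with the largest rises were at low density in WT, some below and some above the median antisense XUT. XUT0691 across MFT1 had densities of 0.0198 and 0.0245 in WT at 40 min, 0.0898 and 0.115 with FU and 1.21 and 1.46 in the mutant; at 100 min they were 0.0279 and 0.0187, 0.0810 and 0.0674, and 1.08 and 1.66. Each group lay above the one before it, and the rise in the mutant was 5.30 ± 0.28 (SE, log2; adjusted p = 8.52e-06, limma) at 40 min and 5.27 at 100 min. MFT1 itself, at 0.157 and 0.150 in WT and 0.137 and 0.105 in the mutant at 40 min, did not pass the test (-0.32, adjusted p = 0.242).

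XUT0552, which lies inside STR2 (cystathionine gamma-synthase of sulfur amino acid metabolism; chromosome 10, 665275 to 666538), went from 0.0147 and 0.0245 in WT to 1.17 and 2.71 in the mutant at 40 min and from 0.0147 and 0.0269 to 0.534 and 2.00 at 100 min. The mutant replicates differed, but both lay far above WT, with log2 changes of 5.84 ± 0.59 and 5.02. XUT0672 at the 5′ end of STE23, a protease that processes the a-factor mating pheromone, rose from 0.0143 and 0.0252 to 0.804 and 1.59 at 40 min (5.19). XUT0039 across PDX3, a pyridoxine phosphate oxidase, rose by 4.92 and XUT0696 across UNG1 by 5.12 at the same time. XUT0039 overlaps CUTs on its own strand, whose reads can count for it, while XUT0552, XUT0672 and XUT0696 overlap no other non-coding transcript there. STR2 and UNG1 did not pass the test at 40 min, while PDX3 rose by 1.77 and STE23 by 0.86, the latter under the deposited scaling only. PDX3 lies 229 nt downstream of the snoRNA gene SNR161 on the same strand, whose density was 3.53 and 5.68 in WT and 12.4 and 12.5 in the mutant at 40 min; the part of that gene's RNA in the rise of PDX3 was not tested.

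At 100 min the largest rise was that of XUT1143 in MOT2, from 0.0480 and 0.0633 in WT to 3.91 and 2.75 in the mutant (5.61 ± 0.50, adjusted p = 3.81e-05, limma). At 40 min the same XUT had reached only 0.553 and 0.253 in the mutant. XUT1071 in SWF1, a protein palmitoyltransferase, went from 0.0464 and 0.0587 to 2.20 and 2.45 (5.18 ± 0.32), and XUT0591 across OAR1, a gene of mitochondrial fatty acid synthesis, from 0.0101 and 0.0237 to 0.904 and 0.982 (5.09 ± 0.59). Each XUT was named on the condition that its mutant libraries lay above both WT libraries of that time. In those WT libraries XUT1143 and XUT1071 lay above the upper quartile of the antisense XUTs (0.0394 and 0.0497). XUT1143, XUT1071 and XUT0591 each overlap a CUT on their own strand, and reads over a shared stretch count for both transcripts. SWF1 was higher as well (1.52; adjusted p = 0.0796 with the median of ratios), and OAR1 was not called.

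Few antisense XUTs were lower without RRP6. XUT0395 in TOS2 (chromosome 7, 937130 to 938279), which overlaps a SUT, was at 0.115 and 0.145 in WT and 0.0563 and 0.0447 in the mutant at 40 min, and at 0.147 and 0.155 against 0.0676 and 0.0672 at 100 min. It was the only member called lower at both times (-1.18 ± 0.28, adjusted p = 0.00553, and -1.03, adjusted p = 0.0100, limma). At 100 min XUT1264 across TRS65, a subunit of the TRAPPII vesicle tethering complex, fell by 1.39 and XUT1294 in PCL5, a cyclin of the Pho85 kinase, fell by 1.04. XUT0548 in SSC1, the mitochondrial Hsp70 (-0.89), and XUT0537 across TAD2, a tRNA adenosine deaminase (-0.55), completed the 5. TRS65 (1.57), PCL5 (2.06) and TAD2 (1.29) rose in the same libraries, and SSC1 fell by 0.73. Each of the 5 falls at 100 min lost its call when at least 1 of the WT or mutant libraries of that time was left out, with adjusted p up to 0.216, while the fall of XUT0395 at 40 min kept it under every setting tried.

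Each XUT was paired with the gene it overlaps most, which gave 1004 paired sense genes, 984 of them tested. In the mutant 304 sense genes were higher and 45 lower at 40 min, and 361 were higher and 50 lower at 100 min. This split depended on the scaling, and with the median of ratios 145 were higher and 118 lower at 40 min and 202 higher and 147 lower at 100 min. Over all 5725 tested genes, 32.3% were higher and 5.26% lower at 40 min under the deposited scaling. At 100 min the shares were 34.5% and 5.15%. Under the median of ratios fewer of all genes tested were higher and more were lower. The sense gene counts under that scaling are therefore not to be set against these shares, and the matching ones are given below with the decay genes. Of the 913 pairs whose XUT was higher at 40 min, the sense gene was higher in 29.5%, lower in 5.59% and not called in the other 593. Of the 943 such pairs at 100 min, it was higher in 35.3% and lower in 5.20%. Where the XUT was not called, the gene was higher in 38.7% and lower in 2.98% of 168 pairs at 40 min, and higher in 38.1% and lower in 5.22% of 134 pairs at 100 min. The share with a lower sense gene was 4.81% and 4.61% for XUTs inside a gene and 6.60% and 6.47% for XUTs that span it, at 40 and 100 min. Across the 1082 pairs in which both partners were tested, the change of the XUT and that of the gene had a Pearson r of -0.143 at 40 min and -0.131 at 100 min. Those points share libraries, and several XUTs share a gene.

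**Figure D4:**
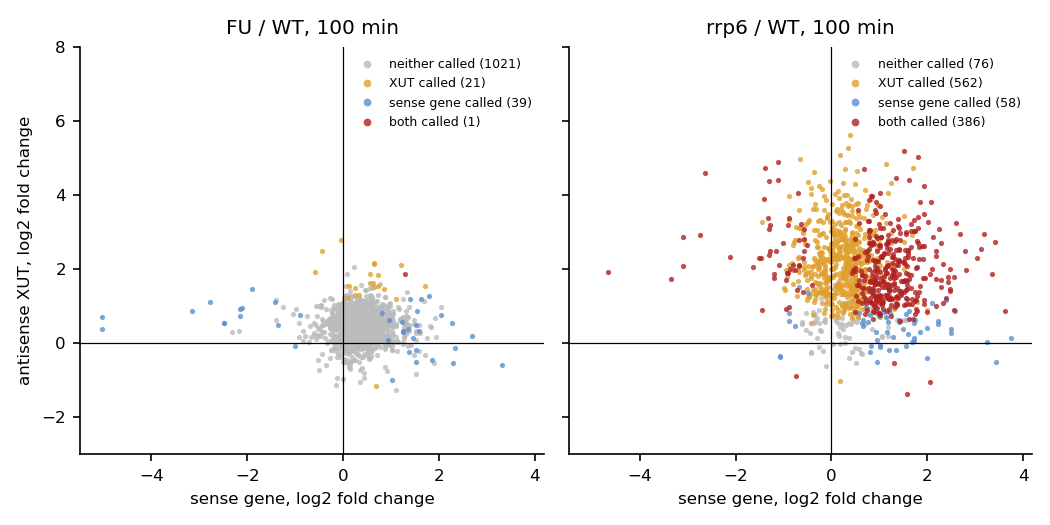
Log2 fold change of the antisense XUT (y axis) against that of its paired sense gene (x axis) at 100 min, for FU and for the rrp6 mutant, each against WT; 1 point per pair, coloured by which partner was called. In the mutant 562 pairs have only the XUT called and 386 have both, and with FU 1021 of 1082 have neither.

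The log2 ratio of XUT to sense density was tested over 2698 pairs of 5 non-coding classes. In the mutant it was higher in 507 of 1082 XUT pairs and lower in 20 at 40 min, against 51.6% and 1.96% of all pairs, and higher in 502 and lower in 29 at 100 min, against 50.8% and 2.22%. The shares of XUT pairs, 46.9% and 46.4% for a higher ratio, were below or near those of all pairs. Leaving out 1 library lowered the calls from 527 to as few as 268 at 40 min (324 without replicate 1 of WT, 335 and 268 without replicate 1 and 2 of the mutant) and from 531 to as few as 304 at 100 min (304 without replicate 1 of WT, 353 and 313 without replicate 1 and 2 of the mutant). The largest shift at 100 min was in SAM3, a permease for S-adenosylmethionine. Its XUT1739 (chromosome 16, 22947 to 26018) went from 0.0102 and 0.00807 in WT to 0.422 and 0.581 in the mutant, and SAM3 from 1.77 and 1.29 to 0.288 and 0.188. Antisense exceeded sense in the 4 mutant libraries and in none of the other 8, and the ratio rose by 7.22 ± 0.50 (adjusted p = 2.19e-05, limma). SAM2, a synthetase of the same metabolite, went from 4.95 and 3.22 to 0.129 and 0.169 at 100 min while its XUT0245 went from 0.0223 and 0.0447 to 0.160 and 0.150 (ratio 6.57). At 40 min SAM2 was already low in WT, at 0.223 and 0.0563, and its ratio was not called.

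XUT and sense gene moved in opposite directions in a small set. The XUT was higher and the gene lower in 51 pairs at 40 min and in 49 at 100 min. These were 5.59% and 5.20% of the pairs with a higher XUT, near the 5.26% and 5.15% of all genes tested that were lower. Of these pairs 43 and 45 held under the median of ratios, where more of all genes tested were lower (13.3% and 15.6%). Pairs called in opposite directions only under that scaling were not counted. At both times this was so for 22 XUTs facing 19 genes, 43.1% and 44.9% of the lists. These genes included TIP1, AGP1, PHO5, PHO84, FET3, FRE4, TSA1, CAR1, BDH1 and AUS1, that is a cell wall mannoprotein, an amino acid permease, an acid phosphatase, a phosphate transporter, the iron ferroxidase and a ferric reductase, a peroxiredoxin, arginase, butanediol dehydrogenase and a sterol transporter.

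XUT0050, which spans TIP1, went from 0.139 and 0.112 in WT to 0.566 and 0.475 in the mutant at 40 min, and TIP1 from 0.377 and 0.404 to 0.0449 and 0.0395 (1.95 for the XUT and -2.89 for the gene). In the mutant at 40 min the antisense density was above the sense density, which it was not in WT. XUT1565, which spans FET3 (chromosome 13, 388741 to 390934), went from 0.0218 and 0.0374 to 0.163 and 0.227 at 40 min while FET3 went from 9.86 and 10.1 to 1.20 and 0.719 (2.32 and -3.41). XUT0089 at the 5′ end of AGP1 rose from 0.00917 and 0.00504 to 0.0797 and 0.0764 at 40 min, and AGP1 went from 4.66 and 4.92 to 0.965 and 0.862. For both FET3 and AGP1 the mRNA stayed several times more abundant than the XUT in every library.

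AUS1 was crossed by 3 such XUTs, each at or below 0.0133 in WT at both times and at 0.0766 to 0.124 in the mutant. AUS1 was at 0.144 and 0.160 in WT and 0.0873 and 0.0950 in the mutant at 40 min (-0.67). BDH1 was crossed by XUT0935 and XUT0936, which went from 0.00543 to 0.0281 in WT to 0.375 to 0.654 in the mutant at 40 min, while BDH1 fell by 0.95. In both genes all mutant libraries lay on the far side of all WT libraries of the same time, for the XUTs and for the mRNA.

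In the 3 pairs with the largest falls of the ratio, the gene rose and the XUT was not called. FLX1, the mitochondrial FAD transporter, went from 0.307 and 0.395 in WT to 9.23 and 7.96 in the mutant at 40 min (4.57) while its XUT1338 was at 0.0236 and 0.0314 in WT and 0.0590 and 0.0272 in the mutant. The ratio fell by 4.15 ± 0.43 at 40 min and fell by 3.60 at 100 min. FLX1 lies 148 nt downstream of the box C/D snoRNA gene SNR68 on the same strand, and the density over SNR68 was 2.79 to 7.48 in WT and 19.8 to 44.5 in the mutant; whether FLX1 reads begin at that gene was not tested. The other falling ratios named by size, those of YBR296C-A (-3.96 at both times) and YPL216W (-3.58 and -3.20), also rested on the gene, which rose by 3.27 and 3.23 at 40 min, while neither XUT was called.

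FU raised far fewer antisense XUTs than the deletion did. At 40 min 33 of 1103 were higher and none was lower, against 2.54% of all features higher and 0.235% lower; 374 had an unadjusted p under 0.05, all of them higher; of all features 26.7% were higher and 1.44% lower at such a p. Limma-voom on recovered reads called 8 higher and 0 lower at 40 min, against 0.549% and 0.139% of all features. At 100 min 21 were higher and 1 lower, against 1.74% and 0.409%, with 17 higher and 0 lower by voom, against 1.29% and 0.435%. These limma shares of the XUTs, 2.99% and 1.90%, were near those of all features. The median log2 changes were 0.59 and 0.46, which is 0.21 and 0.17 above the median gene. With the median of ratios none was called at 40 min (111 rises and 4 falls had an unadjusted p under 0.05, as had 7.51% and 2.92% of all features) and 4 were higher at 100 min, against 0.00871% higher and 0.0348% lower of all features at 40 min and 0.488% and 0.549% at 100 min, so most FU calls below hold only under the deposited scaling.

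The calls at 40 min also rested on particular libraries. Leaving out replicate 1 of FU at 40 min gave 197 calls and leaving out replicate 2 of WT gave 37, while leaving out any of the other 10 libraries left 0 to 2. At 100 min, 0 or 1 call was left without either WT library, and 2 or 1 without either FU library. The 2 lists of higher XUTs shared 5 members (XUT0241, XUT1366, XUT1528, XUT1577 and XUT1748), 15.2% of the list at 40 min and 23.8% of that at 100 min.

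At 40 min the largest rise with FU was that of XUT0696 across UNG1, the glycosylase that removes uracil from DNA. Its densities were 0.00361 and 0.0670 in WT, which come from 1 and 15 reads, and 0.169 and 0.494 with FU (3.11 ± 0.68, adjusted p = 0.0494, limma). UNG1 itself was not called. XUT0287 in DOT6, a repressor of ribosome biogenesis genes, was at 0.0112 and 0.0139 in WT and 0.0798 and 0.113 with FU (2.13 ± 0.26, adjusted p = 0.0226). XUT1524 in YLR445W was at 0.00817 and 0.0269 in WT, from 3 and 8 reads, at 0.0690 and 0.132 with FU and at 0.385 and 0.454 in the mutant. It rose by 1.94 ± 0.38 with FU (adjusted p = 0.0435, limma; 0.206 with the median of ratios) and by 3.94 in the mutant, and YLR445W was not called with FU. For each of the 3 XUTs both FU libraries lay above both WT libraries, which was a condition for naming it.

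DOT6 is crossed by 4 XUTs, of which XUT0287, XUT0288 (1.43) and XUT0289 (1.30) were higher with FU at 40 min, and all 4 were higher in the mutant at both times, by 3.001 to 3.80. The 4 XUTs had densities of 0.00777 to 0.0381 in WT and 0.229 to 0.569 in the mutant. DOT6 was at 0.721 and 0.921 in WT and 0.487 and 0.373 in the mutant at 40 min (-0.92, adjusted p = 0.0217), and at 0.287 and 0.342 against 0.438 and 0.417 at 100 min (0.43, adjusted p = 0.217). The difference of the mRNA's response between the times was not called (1.35, adjusted p = 0.426, interaction term of limma), nor was that of any of the 4 XUTs. FLO1, a flocculin of the cell wall, rose by 1.59 and 1.73 in the mutant together with 1 of its 4 XUTs at 40 min and 3 at 100 min under the deposited scaling. NPR3, a subunit of the SEA complex of TORC1 control, rose by 0.61 and 0.64 under the deposited scaling only, together with 3 of its 4 XUTs at each time. SSY1, the plasma membrane amino acid sensor, is crossed by 5 XUTs, of which 3 were higher at each time, and SSY1 was not called.

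At 100 min XUT0862 at the 3′ end of IQG1 (chromosome 16, 90621 to 91009) was higher with FU. IQG1 is the IQGAP scaffold of the cytokinetic actomyosin ring. This call was among the 2 of 6 named FU calls at that time that passed with the median of ratios. None of the 6 kept its call through leaving out each library in turn. The densities of XUT0862 were 0.0312 and 0.0334 in WT, 0.0507 and 0.0831 with FU and 0.121 and 0.149 in the mutant at 40 min. At 100 min they were 0.00251 and 0.00472 in WT, 0.0796 and 0.0715 with FU and 0.0636 and 0.0922 in the mutant. Both WT libraries at 100 min lay below all 10 others, and the FU and mutant libraries of that time overlapped.

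The rise of XUT0862 with FU was 2.49 ± 0.28 (adjusted p = 0.00399, limma; 0.00921 with the median of ratios). IQG1 was at 0.242 and 0.243 in WT and 0.196 and 0.160 with FU, which did not pass the test (-0.43, adjusted p = 0.280), and the ratio rose by 2.92 ± 0.39. Within WT, XUT0862 was 1.51 lower at 100 than at 40 min while IQG1 was 1.14 higher. XUT0385 across CBP4, an assembly factor of respiratory complex III, rose with FU from 0.0122 and 0.0115 to 0.0716 and 0.120 (2.14 ± 0.32, adjusted p = 0.0124, and 0.0244 with the median of ratios).

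XUT0816 at the 5′ end of ASE1, which bundles microtubules in the spindle midzone, rose from 0.0141 and 0.0242 to 0.184 and 0.214 at 100 min (2.77 ± 0.48, adjusted p = 0.0216), and ASE1 was not called. XUT0521, which spans FAR1, the inhibitor of cyclin-dependent kinase in pheromone arrest, rose from 0.119 and 0.155 to 0.296 and 0.414 (1.29 ± 0.24, adjusted p = 0.0330). Its density was above that of FAR1 in every library, FAR1 lying between 0.00782 and 0.0201. XUT0012 at the 3′ end of CDC15, a kinase of the mitotic exit network, was the only member lower with FU, at 0.0242 and 0.0195 against 0.0625 and 0.0633 in WT (-1.15 ± 0.24, adjusted p = 0.0475). The same XUT was 1.12 higher at 100 than at 40 min in WT, and 2.31 and 2.15 higher in the mutant than in WT. With the median of ratios the adjusted p with FU was 0.0790 for XUT0816, 0.144 for XUT0521 and 0.0562 for XUT0012.

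With FU, the ratios that shifted most did so with the mRNA. None of the 1082 ratios was called at 40 min (73 rises and 11 falls had an unadjusted p under 0.05), as in all 2698 pairs, of which 7.41% and 1.33% had such a p. At 100 min 16 were higher and 7 lower, against 1.19% and 0.445% of all pairs. Without either WT library of that time no ratio was called, and without replicate 2 of FU at 100 min 1 was. XUT0782 and XUT0781 face DSE4, a glucanase that separates daughter from mother cells, and their ratios rose by 5.73 ± 0.59 and 5.42. DSE4 was at 1.68 and 2.13 in WT at 100 min and 0.0537 and 0.0391 with FU (-5.04 ± 0.49), while XUT0782 was at 0.00135 and 0.00381 against 0.0187 and 0.00601 and was not called (0.69, adjusted p = 0.227).

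The same held for AIM44, a bud neck protein, which fell by 3.16 with FU, and for ASH1, the daughter-specific repressor of HO, which fell by 2.78, neither XUT being called. PHO5 went from 1.04 and 1.26 to 0.293 and 0.207 with FU at 100 min (-2.16), and XUT0057, which spans it, was at 0.0216 and 0.0323 against 0.0544 and 0.0689 (0.92, adjusted p = 0.162). In the mutant at 100 min both changed, XUT0057 to 0.248 and 0.315 (2.92) and PHO5 to 0.130 and 0.198 (-2.74). The ratio fell where the mRNA rose, as for NRM1, a repressor of G1/S genes bound by MBF, which went from 0.0780 and 0.0637 to 0.458 and 0.358 (2.34 ± 0.21) while XUT1650 across it was at 0.0352 and 0.0271 against 0.0287 and 0.0257. PLM2 (3.33) and ARO10 (2.29) rose likewise, with no call for XUT1114 or XUT1101. No pair had XUT and gene called in opposite directions with FU at either time.

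**Figure D5:**
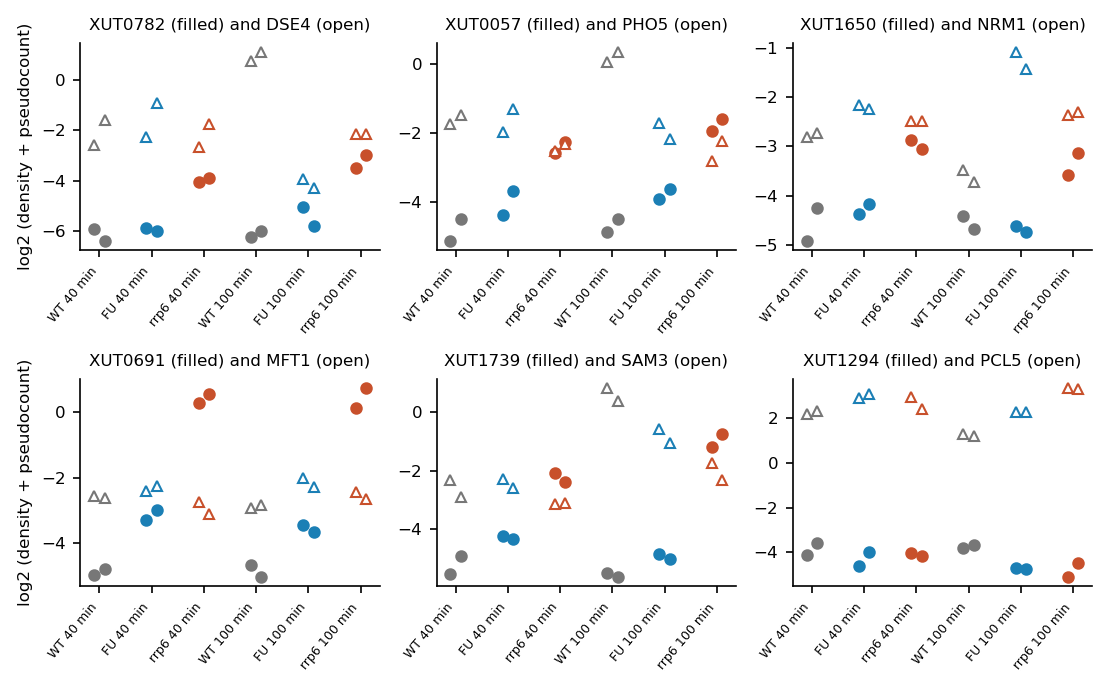
Density of 6 antisense XUTs (filled points) and of their sense genes (open points) in all 12 libraries, as log2(density + 0.0120), grouped by condition and time: DSE4, PHO5, NRM1, MFT1, SAM3 and PCL5. DSE4 is at 1.68 and 2.13 in WT at 100 min and at 0.0537 and 0.0391 with FU, and XUT0691 across MFT1 is at 1.08 to 1.66 in the mutant.

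Set directly against the mutant, FU left antisense XUTs lower. At 40 min 683 were lower with FU than in the mutant and 4 were higher, against 32.7% and 2.55% of all features. At 100 min 808 were lower and 3 higher, against 41.3% and 3.34%. Leaving out 1 library lowered the 687 calls at 40 min to 408 (replicate 1 of FU), 412 and 355 (replicates 1 and 2 of the mutant), and the 811 calls at 100 min to 510 (replicate 2 of the mutant). The XUTs higher with FU included XUT0395 in TOS2 (1.12 at 40 min) and XUT1409 across HMS2, a regulator of pseudohyphal growth (1.02 and 0.80). XUT1409 was at 0.335 and 0.310 with FU against 0.126 and 0.186 in the mutant at 40 min.

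The 19 tested XUTs that face one of the listed cell cycle regulators followed the other members. In the mutant 16 were higher at 40 min and 17 higher and 1 lower at 100 min (14, and 13 with 1 lower, under the median of ratios), with medians of 1.85 and 1.81 against 1.75 and 1.89 for all antisense XUTs. Of all features 54.2% were higher at 40 min, and 57.1% higher and 2.8% lower at 100 min. Under the median of ratios these shares were 36.2%, and 41.3% and 8.3%. With FU none was called at 40 min. At 100 min that of FAR1 was higher and that of CDC15 lower, where 1.74% and 0.409% of all features were. The largest rise in the mutant was that of XUT1390 in BFA1, a part of the mitotic exit checkpoint, from 0.0135 and 0.00417 to 0.418 and 0.788 at 40 min (4.85 ± 0.56). XUT0857 across the G1 cyclin gene CLN2 went from 0.00814 and 0.00559 to 0.0390 and 0.0391 (1.44), and XUT1586 across CLN1 from 0.00691 and 0.0299 to 0.164 and 0.119 (2.43), while neither cyclin mRNA was called. The member that fell was XUT1294 in PCL5, at 0.0591 and 0.0677 in WT and 0.0174 and 0.0334 in the mutant at 100 min, opposite to PCL5 at 2.46 and 2.32 against 10.2 and 9.82.

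Of 6 loci known for an antisense RNA (PHO5, PHO84, GAL1, ZIP2, KCS1 and HMS2), 4 had a higher XUT in the mutant at 40 min and 5 at 100 min, where 54.2% and 57.1% of all features were higher, and none was called with FU. With the median of ratios 4 were higher and 1, that of HMS2, lower at 40 min (36.2% and 7.11% of all features), and 4 higher and 0 lower at 100 min. XUT0683, which spans PHO84 (chromosome 13, 23980 to 26546), went from 0.0139 and 0.0105 to 0.166 and 0.144 at 40 min (2.79) and from 0.00684 and 0.00859 to 0.129 and 0.104 at 100 min (2.70). PHO84 went from 22.8 and 24.0 to 6.46 and 10.7 (-1.49, adjusted p = 0.000756, limma) and from 25.05 and 28.7 to 11.7 and 15.02 (-1.02, adjusted p = 0.00532). At GAL1, the galactokinase gene, XUT0967 rose by 2.36 and 2.48, and GAL1 mRNA rose too, by 0.99 and 1.60 (at 40 min not with the median of ratios, adjusted p = 0.121), from densities of 0.0233 to 0.0622 in WT. At ZIP2, a meiotic gene, XUT1191 rose by 2.72 and 2.66 with no call for the mRNA. The XUT of KCS1, an inositol phosphate kinase gene, rose at 100 min only among the calls (0.90, adjusted p = 0.0465; 0.139 with the median of ratios), and that of HMS2 was not called under the deposited scaling (-0.46, adjusted p = 0.193, at 40 min, and -0.92, adjusted p = 0.0268, with the median of ratios).

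Between 100 and 40 min few antisense XUTs changed. In WT 2 were higher at 100 min and 4 lower (1.31% and 1.06% of all features), with FU 4 and 13 (1.38% and 2.64%), and in the mutant 7 and 1 (1.08% and 0.784%). These counts rested on single libraries: without 1 library they ranged from 0 to 11 in WT, from 0 to 64 with FU and from 0 to 13 in the mutant, and none of the changes named here kept its call without every one of the 12 libraries in turn. In WT, XUT0130 across HBT1 went from 0.00795 and 0.0140 to 0.0582 and 0.0542 (1.58), and XUT0869 across YPL162C from 0.09996 and 0.0763 to 0.0186 and 0.0160 (-1.76). With FU, XUT0633 across YLR050C went from 0.315 and 0.296 to 0.0455 and 0.0635 (-2.27), and in the mutant from 0.605 and 0.801 to 0.204 and 0.206 (-1.71). In the mutant XUT1143 in MOT2 was 3.09 higher at 100 min, and XUT0328 in COG1, a subunit of the Golgi tethering complex, went from 0.0823 and 0.0509 to 0.567 and 0.518 (2.85 ± 0.30, adjusted p = 0.00515, limma). No XUT was called for a difference between the 2 times in the response to FU or to the deletion (interaction terms of limma, 0 called in each, and 0 by voom; an unadjusted p under 0.05 was reached by 22 rises and 40 falls for FU and by 42 rises and 22 falls for the deletion), while 0.00871% and 0.0958% of all features were called for FU and 0.0174% and 0.0609% for the deletion. Voom called 0% and 0.0871% of all features for FU and 0.00871% and 0.0609% for the deletion, and an unadjusted p under 0.05 was reached by 2.46% and 4.88%, and by 4.55% and 3.09%.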

How the data were processed

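Total RNA was extracted with hot phenol, depleted of rRNA, made into strand-specific libraries and sequenced in pairs, per the labels' protocols; TopHat is named in the submitters' processing notes without a version. The authors computed the deposited signal, a density, by dividing the reads of a feature by its length and multiplying by 1 factor per library, as the file's header names it and its values show. It covers 12026 features in 12 libraries, and density times length gave whole reads (tolerance 0.001) for all values. The sources used here give no counter, build or annotation.

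A density is not a count, so limma 3.58.1 (R 4.3.3, trend, 1 mean per group, 6 residual degrees of freedom) was fitted to log2(density + 0.0120) of 11485 features, in 11 comparisons, and to log2 antisense-to-sense ratios of 2698 pairs. The code was tested on simulated data. Other settings were a pseudocount 10 times or 0.1 times as large, no filter, median-of-ratios scaling, a replicate block, each library left out, and limma-voom on the recovered reads, which was added after seeing the data. Python 3.11.15, pandas 2.3.3, NumPy 2.4.6 and Biopython 1.88 did the rest, and matplotlib 3.10.9 drew the figures.

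The members and lists were chosen with earlier results of these data known. Named were, for each comparison with WT, the 5 largest called rises and falls whose libraries lay on 1 side of both controls, the 3 largest rises and falls of the ratio and between times, XUTs over listed cell cycle regulators and known antisense loci, genes with the most XUTs, and called decay genes. The examples from the cell cycle list and, among pairs with opposite calls, TIP1, AGP1, AUS1 and the other genes listed with them were picked after their values were seen. With 2 libraries a group, p-values rest on a spread shared by all 6 groups; the labels call the replicates biological.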

Additional observations from a re-analysis of the deposited data

Results flagged for a closer look

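The antisense-to-sense ratio of XUT0782 and DSE4 (chromosome 14, 757833 to 758555) responded to FU differently at the 2 times. The difference between the responses was 5.998 ± 0.84 on the log2 scale (adjusted p = 0.0485, interaction term of limma over 2698 pairs), with -0.27 at 40 min and 5.73 at 100 min. For XUT0781, which also faces DSE4, the difference was 5.37 and was not called (adjusted p = 0.123, same test). DSE4 was at 0.156 and 0.319 in WT and 0.196 and 0.512 with FU at 40 min, and at 1.68 and 2.13 in WT and 0.0537 and 0.0391 with FU at 100 min, so both FU libraries lay below both WT libraries at 100 min only. XUT0782 was at 0.00448 and 0 in WT at 40 min and at most 0.0187 in any WT or FU library. That highest value was from FU at 100 min, and no other WT or FU library exceeded the constant added before taking logs. XUT0782 passed the filter only with the mutant libraries, at 0.0492 to 0.116, which this comparison does not contrast. The ratio therefore says little about XUT0782, and its difference was mostly that of DSE4. The response of XUT0782 itself was not called different between the times (0.47, adjusted p = 0.952, limma). That of DSE4 was called (-5.52, adjusted p = 0.0278, limma), but not with the median of ratios (adjusted p = 0.0621).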

How the results depend on the processing

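The calls of the rrp6 mutant against WT, both directions together, changed least with the processing: 931 at 40 min and 966 at 100 min stayed within 1.5 times under each setting tried, and without 1 library they ranged from 807 to 955 and from 815 to 981. Counts that moved by more, given as all antisense XUTs called, were those of FU and time. For FU at 40 min (33) they were 0 with the pseudocount 10 times larger, 0 with the median of ratios, 114 with the replicate block and 8 with voom, and 0 to 197 without 1 library. For FU at 100 min (22) they were 6 and 42 with the larger and smaller pseudocount, 4 with the median of ratios, 52 with the block and 0 to 49 without 1 library. For time they were, in WT (6), 2 and 10 with the larger and smaller pseudocount, 10 with the block and 0 to 11 without 1 library; with FU (17), 11 with the median of ratios, 47 with the block and 0 to 64; in the mutant (8), 115 and 3 with the larger and smaller pseudocount, 14 without the filter, 19 with the block, 18 with voom and 0 to 13. FU against the mutant ranged from 355 to 743 at 40 min and from 510 to 847 at 100 min without 1 library. The interaction of deletion and time (0) gave 3 with the larger pseudocount and 0 to 0 without 1 library, that of FU and time 0 to 1. Called ratios were, for FU at 40 min (0), 4 with the larger pseudocount, 7 with the block and 0 to 0 without 1 library; for FU at 100 min (23) 0 to 35; for the mutant (527 and 531) 268 to 645 and 304 to 619. The cause of these shifts was not tested.

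Of the named changes, none reversed under any setting. All 6 of the mutant at 40 min kept the call under every setting, as did 5 of 10 at 100 min; none of the 11 named for FU did, and 2 of them held with the median of ratios. Of the named ratios, 5 of 6 of the mutant kept the call at each time and none of the 6 for FU at 100 min did. Same-numbered replicates deviated together for some pairs of groups and not for others (correlations of their deviations from -0.091 to 0.778 over all groups, and from 0.226 to 0.778 among the WT and FU groups). The highest was between WT and FU at 40 min, whose replicates 2 also had the highest snoRNA shares. Whether these share a batch was not tested. The labels name no shared batch, so replicates were not paired in the main fit, and the block fit stands as an alternative. With the block, 10.3% of antisense XUTs were higher with FU at 40 min against 7.49% of all features, and 4.53% against 4.08% at 100 min. Fewer than 10 reads under many XUTs in WT limit what could be called there. Calls of the antisense-to-sense ratios under the median of ratios are not given here.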

Other observations

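Of 50 genes listed for the decay and biogenesis of such RNAs, 28 were higher and 3 lower in the rrp6 mutant at 40 min and 22 higher and 2 lower at 100 min; with the median of ratios these were 8 and 4, and 9 and 4. Of all genes tested, 32.3% were higher and 5.26% lower at 40 min and 34.5% and 5.15% at 100 min, and with the median of ratios 12.3% and 13.3%, and 16.1% and 15.6%. The lower ones were LSM5, LSM6 and RRP6 at 40 min and LSM5 and RRP6 at 100 min. NRD1, which encodes an RNA-binding subunit of the early termination complex, rose by 2.94 ± 0.24 at 40 min and 2.997 ± 0.24 at 100 min (adjusted p = 3.3e-05 and 2.5e-05, limma) and kept the call with the median of ratios. SEN1, the helicase of that complex, rose by 1.42 and 1.39, and NAB3 by 1.46 and 1.22. DBP2, an RNA helicase gene, was the 1 listed gene called with FU at 40 min (1.02, adjusted p = 0.0378), and none was called at 100 min or with the median of ratios. XRN1, whose product degrades XUTs, was at 0.587 to 1.44 in WT and 1.55 to 2.36 in the mutant and was not called in either comparison (0.82, adjusted p = 0.126, and 0.85, adjusted p = 0.110, limma).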
